A study of Rattus norvegicus with 12 samples.

Results

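Fibronectin and the matricellular glycoproteins were described in the rat kidney fibroblast line NRK-49F as 9 genes chosen by name: Fn1, Sparc, Spp1, Tnc, Thbs1, Thbs2, Postn, Tgfbi and Cthrc1. Of these, 8 were found by symbol among the 14275 genes of the deposited normalized table, and all 8 were among the 14601 genes tested. Cthrc1 was not analysed here, because no row could be matched to that symbol. The cells had been transfected with the empty vector pcDNA3.1 or with a plasmid for human HDAC1 that carries a Flag tag. They were then kept in low-serum medium with vehicle or with 2 ng/ml TGFB1 for 24 h before poly(A) RNA was sequenced. The titles place 3 of the 12 libraries in each of 4 groups, which are the combinations of a vector (empty or HDAC1) and a treatment (vehicle or TGFB1). The design text speaks of TGFB1 for all cells and the treatment labels run as a numbered series, so the group of each library rests on its title. All groups share 1 cell line and a transfection. The labels do not say that replicates are separate cultures, so p-values measure the spread between these libraries, which may be technical.

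Fibronectin is a secreted dimer that cells stretch into fibrils through integrins, and these fibrils serve as a scaffold on which collagens and other matrix proteins are laid down. Matricellular proteins are secreted into the same matrix but act less as structural fibres than as adaptors, binding collagens, growth factors, proteases and cell surface receptors. Many of them are scarce in resting tissue and abundant in wounds and in scarring kidney, and TGF-beta is a well known inducer of several, Fn1, Tnc, Postn, Thbs1 and Tgfbi among them. HDAC1 removes acetyl groups from histones and other proteins as part of corepressor complexes. The design asks which genes of TGFB1-treated kidney fibroblasts differ when HDAC1 is raised.

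TGFB1 raised most of these genes and HDAC1 lowered 1 of them under both treatments. With TGFB1, Postn rose over 6-fold, Tgfbi, Thbs1, Tnc and Thbs2 rose about 2-fold and Fn1 rose 1.67-fold in empty vector cells, while Sparc and Spp1 did not pass the test. HDAC1 lowered Sparc 1.69-fold in vehicle and 1.68-fold with TGFB1. It also lowered Tnc 1.19-fold with TGFB1, a call that depended on single libraries. With the summed heart muscle markers described below as a covariate, neither fall under TGFB1 passed the test (edgeR, adjusted p = 0.0635 for Sparc and 0.258 for Tnc). Fn1 itself did not pass the test for HDAC1 under either treatment.

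Levels are CPM, which are counts scaled to a common library total after TMM scaling, and are given as mean ± SD of 3 libraries. Gene lengths were not available here, so levels are compared between groups for 1 gene and not between genes. Together the 8 genes took 1.31% ± 0.0379 (SD, n = 3) of all counts with the empty vector in vehicle and 1.15% ± 0.0468 with HDAC1 in vehicle. Under TGFB1 their share was 1.92% ± 0.183 for the empty vector and 1.78% ± 0.0750 for HDAC1. Fn1, Thbs1 and Spp1 made up most of this share, 1.15% of all counts in the empty vector vehicle libraries and 1.71% in those with TGFB1, a share of reads and not of molecules. In bulk RNA, fewer cells that express a gene and less RNA per cell cannot be told apart.

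The libraries held 18397093 to 36652084 counts. Hdac1, the targeted gene, was at 209.7 ± 4.13 CPM with the empty vector and 420.9 ± 43.3 CPM with HDAC1 in vehicle, and at 266.5 ± 21.1 and 463.7 ± 43.5 CPM with TGFB1 for the empty vector and HDAC1, as labelled. Hdac1l, an Hdac1-like gene, was at 8.29 ± 7.33 CPM in vehicle and 9.30 ± 1.64 CPM with TGFB1 in the empty vector groups. The empty vector vehicle libraries ran from 0.530 to 15.1 CPM. In the HDAC1 groups Hdac1l was at 1172 ± 279 and 1090 ± 251 CPM, so reads of the human plasmid may be counted under both names. Of 8 fibroblast markers 6 were tested, and none of 7 kidney tubule markers was matched to a tested gene. In vehicle the fibroblast markers summed to 10220 to 11780 CPM with the empty vector and 7979 to 9361 CPM with HDAC1. Under TGFB1 they summed to 12826 to 15424 CPM with the empty vector and 10710 to 12744 CPM with HDAC1. The sum was thus lower in the HDAC1 libraries under both treatments, but not every marker was. Most of it came from Col1a1, Col1a2 and Vim. In vehicle Col1a1 was at 5200 CPM with the empty vector and 3375 CPM with HDAC1, and Col1a2 at 2804 and 1935 CPM. Vim was higher with HDAC1, at 2691 and 3138 CPM in vehicle and at 4297 and 4571 CPM with TGFB1. The 4 tested endothelial markers summed to 2.34 to 4.73 CPM and the 2 tested leukocyte markers to 2.43 to 10.6 CPM. Transcripts of heart muscle and brain were also counted. The 10 heart muscle markers, none of which was at 0, summed to 51.7, 296.5 and 316.9 CPM with the empty vector in vehicle, 182.0 to 350.1 CPM with HDAC1 in vehicle, 336.0 to 423.5 CPM with the empty vector and TGFB1, and 111.9 to 126.0 CPM with HDAC1 and TGFB1. The 7 tested brain markers summed to 9.28 to 43.8, 30.4 to 56.8, 53.1 to 56.9 and 16.2 to 19.8 CPM in the same order. These sums were lower in all 3 HDAC1 with TGFB1 libraries than in all 3 empty vector with TGFB1 libraries, so they move with the HDAC1 effect under TGFB1, and their part in it was not tested beyond the covariate fit given with Sparc.

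The RefSeq promoter table (rat assembly GRCr8) held 6 of the 9 genes. For Sparc and Thbs1 the table's start site is also the edge of the annotated gene, so the 250 bases before the start are shown for this contrasting pair: Thbs1 rose with TGFB1 and did not pass the test for HDAC1, and Sparc fell with HDAC1 and did not pass the test for TGFB1. Sparc lies on the minus strand at chr10:40038817-40039066 and Thbs1 on the plus strand at chr3:125510000-125510249, both read 5′ to 3′ towards the start. Capitals mark the searched motifs on either strand: CAGAC, known as a SMAD-binding element, GGAATG of TEAD factors, GGGCGG of Sp1 and CCAAT.
Sparc: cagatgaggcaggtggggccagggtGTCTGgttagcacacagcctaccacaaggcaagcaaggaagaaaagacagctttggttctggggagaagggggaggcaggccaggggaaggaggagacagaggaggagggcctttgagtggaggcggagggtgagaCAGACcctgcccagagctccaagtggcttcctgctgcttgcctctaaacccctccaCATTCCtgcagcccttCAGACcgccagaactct
Thbs1: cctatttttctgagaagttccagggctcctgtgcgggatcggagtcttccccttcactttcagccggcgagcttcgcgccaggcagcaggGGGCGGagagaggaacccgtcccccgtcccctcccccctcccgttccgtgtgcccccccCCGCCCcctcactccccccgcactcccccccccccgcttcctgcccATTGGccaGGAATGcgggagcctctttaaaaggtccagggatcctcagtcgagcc
In this window Sparc holds 3 copies of CAGAC, beginning 225, 89 and 17 bases before the start, and 1 copy of GGAATG 33 bases before it. The Thbs1 window holds no CAGAC, 2 copies of GGGCGG 160 and 101 bases before the start, 1 CCAAT and 1 GGAATG. Over the 33465 windows of this length in the table, 42.9% held CAGAC, 12.1% GGAATG, 30.5% GGGCGG and 34.0% CCAAT. Among the 6 genes with a window, CAGAC was found for Sparc, Postn, Spp1 and Tnc, GGGCGG for Tgfbi, Thbs1 and Tnc, and TATAAA, held by 12.9% of windows, for Postn, Spp1 and Tnc. The palindrome GTCTAGAC (0.173% of windows), the AP-1 motif TGANTCA (6.34%) and the CREB motif TGACGTCA (1.59%) were found for none of the 6. A match is a description of letters, not of binding.

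Fn1 (ENSRNOG00000014288) encodes fibronectin. It was at 4782, 4277 and 4336 CPM with the empty vector and at 3509, 4099 and 3901 CPM with HDAC1 in vehicle. In the TGFB1 groups Fn1 was at 8865, 7292 and 6247 CPM with the empty vector and at 6758, 7889 and 7391 CPM with HDAC1. Every TGFB1 library was above every vehicle library, and the spread was widest among the empty vector libraries with TGFB1. The rise with TGFB1 was 0.74 ± 0.10 (SE) on the log2 scale with the empty vector (edgeR, adjusted p = 4.74e-06) and 0.94 ± 0.10 with HDAC1 (edgeR, adjusted p = 3.24e-07). In vehicle all 3 HDAC1 libraries lay below all 3 empty vector libraries, by means of 3836 ± 300 against 4465 ± 277 CPM, yet the log2 fold change of -0.22 ± 0.10 did not pass the test (edgeR, adjusted p = 0.166). With TGFB1 the HDAC1 libraries lay inside the range of the empty vector libraries, with a log2 fold change of -0.02 and a 95% interval of -0.23 to 0.19 (edgeR, adjusted p = 0.917). In order of mean level the groups ran from HDAC1 in vehicle through empty vector in vehicle to the TGFB1 groups, at 7346 ± 567 CPM with HDAC1 and 7468 ± 1318 CPM with the empty vector, and neither neighbouring pair of the same treatment differed by the test.

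**Figure D1:**
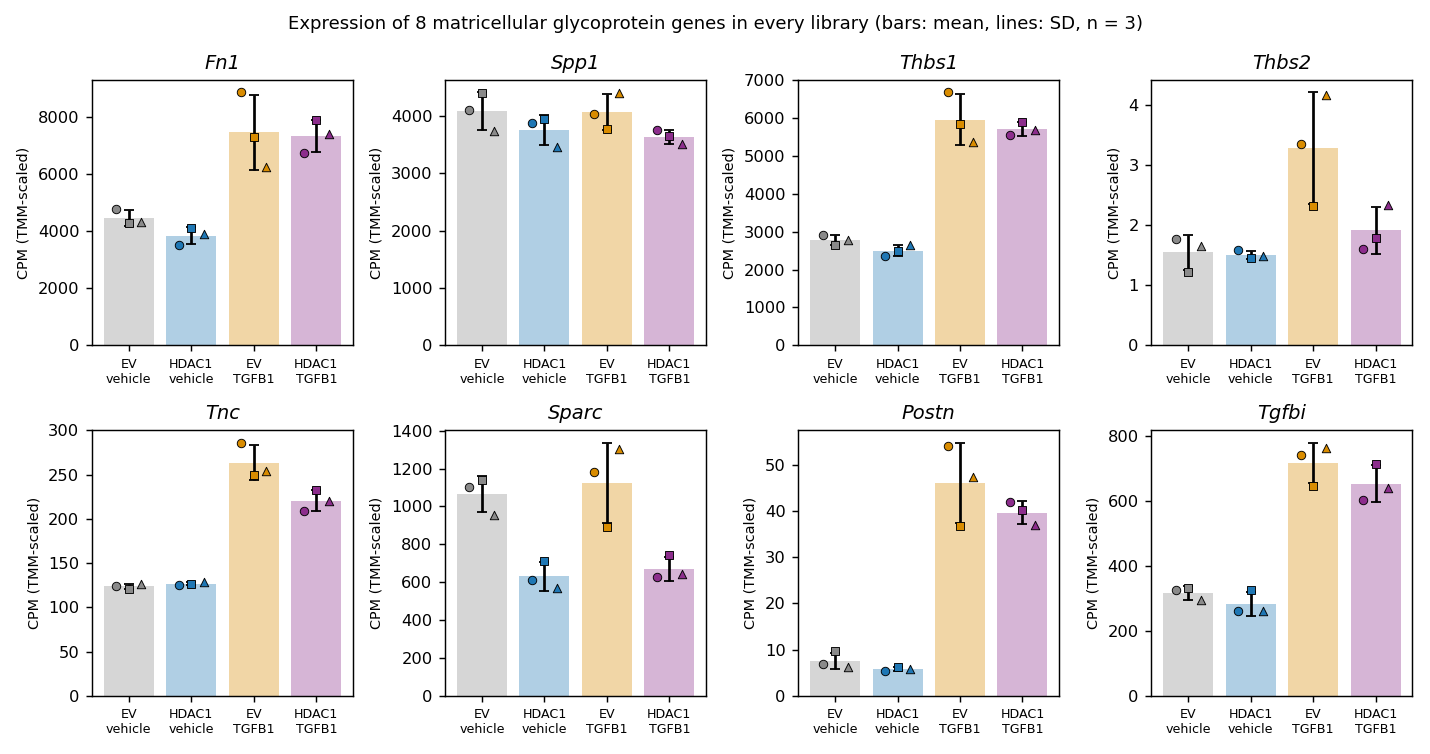
Level in CPM (linear axes from 0, a separate scale for each gene) of the 8 genes in the 4 groups, with bars for the mean of 3 libraries, lines for the SD and circle, square and triangle for replicates 1, 2 and 3. Fn1, Thbs1, Tnc, Postn and Tgfbi stand higher in all TGFB1 libraries than in all vehicle libraries, while Sparc stands lower in all HDAC1 libraries than in all empty vector libraries.

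Thrombospondin 1 (Thbs1, ENSRNOG00000045829) is a trimeric glycoprotein that binds CD47 and can activate latent TGF-beta. It was at 2909, 2651 and 2776 CPM with the empty vector in vehicle and at 2369, 2496 and 2640 CPM with HDAC1 in vehicle. Under TGFB1 Thbs1 was at 6678, 5833 and 5369 CPM with the empty vector and at 5545, 5896 and 5692 CPM with HDAC1. The treatments were fully separated, and HDAC1 was lower than the empty vector in every library in vehicle but not with TGFB1. The rise with TGFB1 was 2.14-fold with the empty vector (log2 1.10 ± 0.08, edgeR, adjusted p = 1.93e-10) and 2.28-fold with HDAC1 (log2 1.19 ± 0.08, edgeR, adjusted p = 5.97e-11). The HDAC1 effect did not pass the test in vehicle (log2 -0.15, 95% interval -0.31 to 0.01) or with TGFB1 (log2 -0.06, 95% interval -0.22 to 0.10).

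Thrombospondin 2 (Thbs2, ENSRNOG00000010529), a close relative of Thbs1, was detected at 23 to 84 raw counts a library, so counting error is a large part of its spread. It was at 1.77, 1.22 and 1.65 CPM with the empty vector in vehicle and at 1.58, 1.45 and 1.48 CPM with HDAC1 in vehicle. The TGFB1 libraries had 3.34, 2.31 and 4.17 CPM with the empty vector and 1.60, 1.79 and 2.34 CPM with HDAC1. The empty vector libraries with TGFB1 were above all vehicle libraries, and 1 of the 3 HDAC1 libraries with TGFB1 was higher than the lowest of them. Thbs2 rose with TGFB1 in empty vector cells (log2 1.07 ± 0.25, edgeR, adjusted p = 0.00117) and was not called in HDAC1 cells (log2 0.34 ± 0.25, edgeR, adjusted p = 0.275). With TGFB1 the HDAC1 effect was -0.76 ± 0.24 on the log2 scale and did not pass the threshold (edgeR, adjusted p = 0.0643). Without replicate 2 of the empty vector with TGFB1 it was -0.95 and called (edgeR, adjusted p = 0.0229), and over all 13 alternatives the adjusted p ran from 0.0229 to 0.289. That the TGFB1 effect was called in 1 vector and not in the other is no difference by itself: the interaction was -0.72 with a 95% interval of -1.46 to 0.02 (edgeR, adjusted p = 0.398).

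Tenascin C (Tnc, ENSRNOG00000058645), a large branched glycoprotein that loosens cell adhesion to fibronectin, was at 124.0, 121.0 and 126.6 CPM with the empty vector in vehicle and at 125.2, 126.5 and 129.1 CPM with HDAC1 in vehicle. Under TGFB1 the level was 286.1, 249.6 and 254.4 CPM with the empty vector and 208.8, 232.3 and 220.7 CPM with HDAC1. The vehicle groups overlapped and were tight, whereas with TGFB1 all 3 HDAC1 libraries were below all 3 empty vector libraries. The rise with TGFB1 was 2.13-fold with the empty vector (log2 1.09 ± 0.06, edgeR, adjusted p = 1.33e-11) and 1.74-fold with HDAC1 (log2 0.80 ± 0.06, edgeR, adjusted p = 1.64e-09). Tnc was 1.19-fold lower with HDAC1 under TGFB1 (log2 -0.26 ± 0.06, 95% interval -0.39 to -0.12, edgeR, adjusted p = 0.0189), against 0.03 ± 0.06 in vehicle (edgeR, adjusted p = 0.781). The call was lost without replicate 1 of the empty vector with TGFB1 (log2 -0.20, edgeR, adjusted p = 0.104), without replicate 1 of HDAC1 with TGFB1 (log2 -0.22, edgeR, adjusted p = 0.122) and without replicate 3 of that group (log2 -0.26, edgeR, adjusted p = 0.0813). The difference between the HDAC1 effects was -0.29, 95% interval -0.48 to -0.10, and did not pass the adjusted test (edgeR, adjusted p = 0.140).

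Periostin (Postn, ENSRNOG00000012660) is made by activated fibroblasts and binds collagen, fibronectin and tenascin C. It was at 6.85, 9.59 and 6.30 CPM with the empty vector in vehicle and at 5.34, 6.17 and 5.73 CPM with HDAC1 in vehicle. In the TGFB1 groups Postn was at 54.1, 36.7 and 47.2 CPM with the empty vector and at 41.8, 40.1 and 36.9 CPM with HDAC1. Every TGFB1 library was above every vehicle library, the nearest being 36.7 against 9.59 CPM. The rise was 6.15-fold with the empty vector (95% interval 4.96 to 7.63, edgeR, adjusted p = 1.19e-10) and 6.92-fold with HDAC1 (95% interval 5.57 to 8.59, edgeR, adjusted p = 5.94e-11), and 0.747% and 0.445% of all genes tested had a higher log2 fold change in these comparisons. In vehicle all HDAC1 libraries were below all empty vector libraries, with a log2 fold change of -0.39 ± 0.17 that did not pass the test (edgeR, adjusted p = 0.144), and with TGFB1 it was -0.22 ± 0.13 (edgeR, adjusted p = 0.326).

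Tgfbi (ENSRNOG00000012216) encodes a collagen-binding protein of the same fasciclin-domain family as periostin, named for its induction by TGF-beta. It was at 325.6, 333.6 and 293.8 CPM with the empty vector in vehicle and at 262.6, 325.0 and 262.4 CPM with HDAC1 in vehicle. Under TGFB1 Tgfbi was at 741.8, 647.0 and 764.8 CPM with the empty vector and at 603.8, 715.2 and 642.2 CPM with HDAC1. The treatments did not overlap, and under both treatments the HDAC1 libraries overlapped those of the empty vector. The rise with TGFB1 was 2.26-fold (log2 1.18 ± 0.09, edgeR, adjusted p = 1.29e-09) and 2.31-fold (log2 1.21 ± 0.09, edgeR, adjusted p = 1.00e-09) with the empty vector and HDAC1. The HDAC1 effect was -0.16 in vehicle (edgeR, adjusted p = 0.245) and -0.13 with TGFB1 (edgeR, adjusted p = 0.379) on the log2 scale. Without replicate 2 of HDAC1 in vehicle, the highest of its group, the vehicle effect was -0.27 and called (edgeR, adjusted p = 0.0443).

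Sparc (ENSRNOG00000012840), also called osteonectin, is a collagen-binding protein that takes part in the assembly of collagen fibrils. It was at 1102, 1139 and 956 CPM with the empty vector and at 609, 714 and 567 CPM with HDAC1 in vehicle. In the TGFB1 groups Sparc was at 1183, 890 and 1301 CPM with the empty vector and at 628, 741 and 641 CPM with HDAC1. The highest of the 6 HDAC1 libraries was below the lowest of the 6 empty vector libraries, and TGFB1 libraries overlapped vehicle libraries for each vector. Sparc fell with HDAC1 by 0.76 ± 0.13 on the log2 scale in vehicle (edgeR, adjusted p = 0.00127) and by 0.75 ± 0.13 with TGFB1 (edgeR, adjusted p = 0.00444). The difference between these effects was 0.01, 95% interval -0.37 to 0.40 (edgeR, adjusted p = 0.988). TGFB1 did not pass the test with the empty vector (log2 0.08, 95% interval -0.19 to 0.35) or with HDAC1 (log2 0.09, 95% interval -0.18 to 0.36). By mean level the groups ran from 630 ± 75.6 and 670 ± 62.1 CPM with HDAC1 to 1065 ± 96.7 and 1125 ± 212 CPM with the empty vector, vehicle before TGFB1 in each pair.

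The fall of Sparc was set beside the fibroblast and heart muscle markers. Of the 6 fibroblast markers tested, HDAC1 lowered 4 in vehicle, Col1a1 (log2 -0.62), Col1a2 (log2 -0.54), Pdgfra (log2 -0.27) and Pdgfrb (log2 -0.81), and raised Vim (log2 0.22). Under TGFB1 it lowered 2, Col1a2 (log2 -0.45) and Pdgfrb (log2 -0.45). Over all genes tested, 7.32% were called lower and 6.64% higher in vehicle, and 4.36% lower with TGFB1. The part of these markers in the fall of Sparc was not tested. The empty vector vehicle library with the lowest heart sum, replicate 1, had 1102 CPM of Sparc, within the range of the other empty vector libraries. That is 1 library in vehicle, and nothing about the fall of Sparc is read from it. With the log heart sum as a covariate, the fall in vehicle was 0.76 on the log2 scale and called (edgeR, adjusted p = 0.00213), while under TGFB1 the value was -0.74 and missed the threshold (edgeR, adjusted p = 0.0635). Tnc under TGFB1 was then -0.25 (edgeR, adjusted p = 0.258). Under TGFB1 the 2 groups do not overlap in the heart sum. In the leave-one-out fits of the same comparison Sparc was called each time. Those fits hold no heart term and leave the groups apart in the heart sum, so they do not address it.

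**Figure D2:**
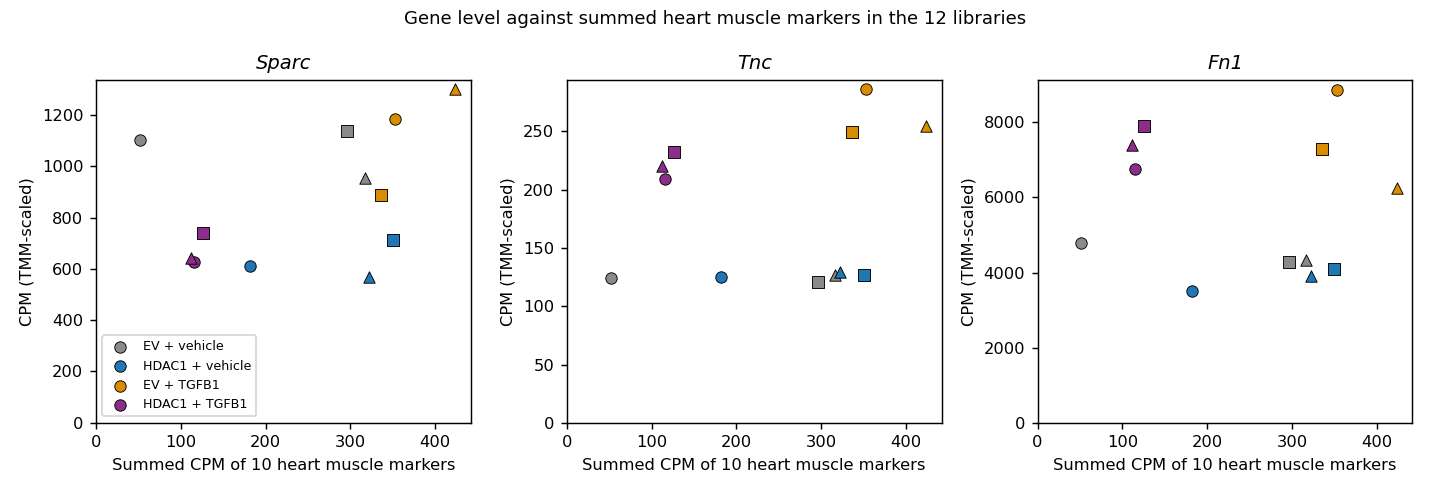
Level of Sparc, Tnc and Fn1 in CPM (vertical, linear from 0) against the summed CPM of 10 heart muscle markers (horizontal, linear from 0), 1 point a library, coloured by group and shaped by replicate. The 3 HDAC1 with TGFB1 libraries sit between 111.9 and 126.0 CPM of markers, and 1 empty vector vehicle library sits at 51.7 CPM of markers with Sparc at 1102 CPM.

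Osteopontin (Spp1, ENSRNOG00000043451), a phosphorylated glycoprotein that binds integrins and CD44, was at 4094, 4399 and 3742 CPM with the empty vector in vehicle and at 3870, 3939 and 3462 CPM with HDAC1 in vehicle. Under TGFB1 Spp1 was at 4023, 3777 and 4396 CPM with the empty vector and at 3752, 3643 and 3510 CPM with HDAC1. The vehicle groups overlapped, and with TGFB1 all 3 HDAC1 libraries lay just below all 3 empty vector libraries. No comparison passed the test: the TGFB1 effects were -0.00 (95% interval -0.16 to 0.15) and -0.05 (-0.21 to 0.11), and the HDAC1 effects -0.12 (-0.28 to 0.04) and -0.16 (-0.32 to -0.00), all on the log2 scale. The bound farthest from no change was a level 0.801 times that of the empty vector, for HDAC1 with TGFB1.

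The number of members called was set beside the share of all genes called. The members were chosen with earlier results of these data known, so this is a description and not a test. With the empty vector, TGFB1 called 6 of the 8 genes, all higher, where 50.9% of all genes tested were called and 25.9% were called higher. With HDAC1 it called 5 of 8, all higher, where 49.1% of genes were called and 24.9% higher. The members' median log2 fold change was 1.08 and 0.87 in these comparisons, beside 0.01 and -0.02 over all genes. HDAC1 in vehicle called 1 of 8, lower, where 14.0% of genes were called and 7.32% lower. Under TGFB1 it called 2 of 8, both lower, where 6.53% were called and 4.36% lower. The estimates were below 0 for 7 of 8 genes in vehicle and 8 of 8 with TGFB1, where 51.6% and 50.3% of all genes were below 0. Of the 8 genes, 7 and 6 were not called in these comparisons. The members' medians were -0.16 and -0.19 beside -0.01 and -0.00 over all genes. The HDAC1 and TGFB1 comparisons share libraries, so these counts are not independent of each other. Nor are the genes. Among Fn1, Thbs1, Tnc, Postn and Tgfbi, Pearson's r of log2 CPM over the 12 libraries ran from 0.94 to 0.99. With 3 libraries a group, an exact permutation test of 1 gene cannot go below p = 0.1, so single genes were judged by the fit across all genes.

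The interaction, which asks whether the HDAC1 effect differs between treatments, called 0 of the 8 genes by edgeR and 0 by DESeq2, where 0.479% of all genes tested were called by edgeR. At an unadjusted p under 0.05 edgeR had 1 of 8, Tnc, where 12.9% of all genes had such a p. The estimates ran from -0.72 for Thbs2 to 0.20 for Fn1. A contrast added after the data were seen averaged the HDAC1 effect over vehicle and TGFB1. It called 1 of 8 genes, lower, where 20.2% of genes were called and 10.7% lower. Sparc was 1.68-fold lower (log2 -0.75 ± 0.09, edgeR, adjusted p = 6.07e-05). The nearest of the others were Postn (log2 -0.30, edgeR, adjusted p = 0.0525) and Spp1 (log2 -0.14, edgeR, adjusted p = 0.0704), and Fn1 was at -0.12 (95% interval -0.27 to 0.03).

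**Figure D3:**
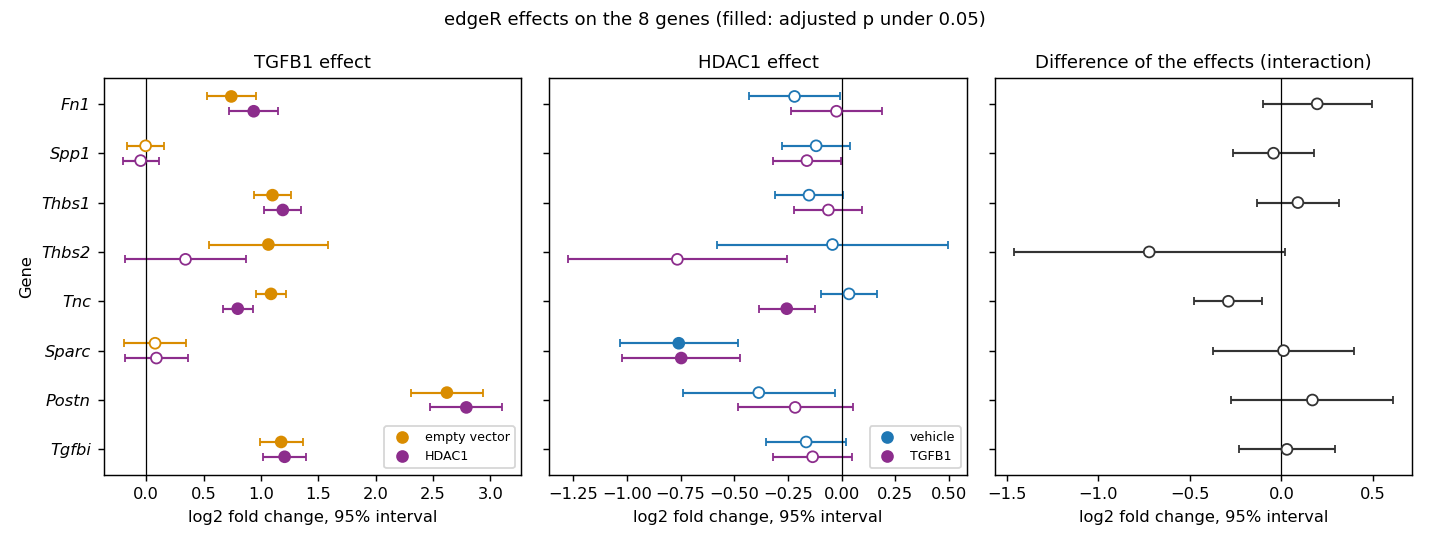
Log2 fold changes of the 8 genes (points) with 95% intervals (lines) for TGFB1 in either vector, HDAC1 in either treatment and the difference of the effects, with filled points at an edgeR adjusted p under 0.05. The TGFB1 points of Postn lie at 2.62 and 2.79, the HDAC1 points of Sparc lie at -0.76 and -0.75, and no point of the interaction is filled.

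Of 15 listed integrin subunits and other receptors, 11 were tested. TGFB1 raised 4 and lowered 3 with the empty vector and raised 5 and lowered 3 with HDAC1, with medians of 0.15 and -0.05 beside 0.01 and -0.02 over all genes. Over all genes tested, 50.9% and 49.1% were called. Itgb3, a subunit of receptors for fibronectin and osteopontin, rose from 19.5 ± 1.48 to 57.4 ± 6.48 CPM with the empty vector (log2 1.56, edgeR, adjusted p = 1.50e-10). Itga5 and Itgb1, which together form the main fibronectin receptor, rose by 0.57 and 0.55 on the log2 scale, and Cd44, a receptor for hyaluronan and osteopontin, by 0.49. HDAC1 called 2 of the 11 under each treatment, where 14.0% of all genes were called in vehicle and 6.53% with TGFB1. It lowered Itgb3 (log2 -0.38) and raised Itgb6 (log2 0.61) in vehicle, and raised Itgb1 (log2 0.21) and Cd44 (log2 0.30) with TGFB1.

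Of 19 listed relatives of the same families, 7 were tested. In vehicle HDAC1 lowered 2 of them, Fstl1 (log2 -0.31), a secreted relative of Sparc, and the thrombospondin Thbs3 (log2 -0.27). With TGFB1 it lowered 4: Fstl1 (log2 -0.24), Sparcl1 (log2 -1.73), Spock1 (log2 -2.00) and Spock2 (log2 -1.40). Over all genes, 7.32% were called lower in vehicle and 4.36% with TGFB1, and DESeq2 called 3 of the 7 relatives with TGFB1. The list's medians were -0.09 in vehicle and -0.24 with TGFB1, beside -0.01 and -0.00 over all genes. Sparcl1 stood at 2.68 ± 0.263 CPM with the empty vector and 0.786 ± 0.264 CPM with HDAC1 under TGFB1, and Spock2 at 2.14 ± 0.297 and 0.791 ± 0.208 CPM. Spock1, with the largest fall, was lower still, at 0.735 ± 0.209 and 0.175 ± 0.0577 CPM (edgeR, adjusted p = 0.0486). The heart and brain marker sums given above were lower in the same libraries, and their part in these low-level changes was not tested. TGFB1 raised 1 of the 7 and lowered 1 with the empty vector, Fstl1 (log2 0.30) and the tenascin Tnr (log2 -1.60), and raised 3 and lowered 3 with HDAC1, where 50.9% and 49.1% of all genes were called.

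Partners in the assembly and crosslinking of the matrix numbered 12 on the list, of which 11 were tested. TGFB1 raised 5 and lowered 1 in each vector, a share called that is near the 50.9% and 49.1% of all genes. The medians were 0.14 with the empty vector and 0.29 with HDAC1, beside 0.01 and -0.02 over all genes. Lox, which crosslinks collagen, rose from 164 ± 12.5 to 406 ± 34.4 CPM with the empty vector (log2 1.31, edgeR, adjusted p = 5.91e-12), and Fbln1, which binds fibronectin, rose by 1.11 on the log2 scale. In vehicle HDAC1 lowered 4: Mmp2 (log2 -0.48), the procollagen protease Bmp1 (log2 -0.32), Col1a1 (log2 -0.62) and Lox (log2 -0.26), where 7.32% of all genes were called lower. With TGFB1 it called 0 of the 11 by edgeR and by DESeq2, where edgeR called 6.53% of all genes. Of the 11, 3 had an unadjusted edgeR p under 0.05, as had 23.0% of all genes. Early target genes of TGF-beta rose in 8 of 8 cases with TGFB1 in each vector, with medians of 0.96 and 1.08, where 25.9% and 24.9% of all genes were called higher. Among them was Ccn2 (log2 2.00 with the empty vector), which is named after its values were seen. HDAC1 lowered 3 of these 8 in vehicle and 1, Ccn2 (log2 -0.70), with TGFB1, where 7.32% and 4.36% of all genes were called lower.

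For each gene, the 2 most similar patterns over the 12 libraries were sought among 10154 genes with a symbol and a mean log2 CPM of at least 2. Pearson's r of log2 CPM is given as a description, since it follows the group differences that these libraries share. For Fn1 they were Myh9 (0.991) and Nuak2 (0.986), for Thbs1 Nid1 and Ctnnd1 (0.996 each), and for Thbs2 Igfbp7 (0.953) and Sf3b5 (0.935). Tnc was most like Smtn (0.995) and Mprip (0.992), Postn like Ncam1 and Nedd9 (0.994 each), and Tgfbi like Col5a2 (0.993) and Shisa2 (0.992). Sparc was most like P4hb (0.975) and Rnase4 (0.973). The lowest values were those of Spp1, with Nol3 (0.914) and Rab2b (0.902).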

How the data were processed

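The authors deposited raw counts per gene for 43360 genes and a normalized signal for 14275 genes. Checked on the values, each normalized column is the count column divided by 1 constant, and genes have at least 100 counts in all. Trim Galore 0.6.7, featureCounts of Subread 2.0.1 and DESeq2 1.44 were used, per the submitters' processing notes. These name the mouse build mm10, whereas the identifiers are rat Ensembl genes. The aligner and rat build are not given in the sources used here, nor is the handling of reads that fit several genes. Every column was matched to a sample.

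Tests used the deposited counts in edgeR 4.0.16 (R 4.3.3) with filterByExpr, TMM scaling and a robust quasi-likelihood fit of 1 mean per group to all 12 libraries. The 14601 genes kept hold 99.879% or more of the counts in each library, and the fit left 8 residual degrees of freedom, with a common biological coefficient of variation of 7.61%. Tests were two-sided, and called means an adjusted p under 0.05 (Benjamini-Hochberg, over the 14601 genes). A standard error is the size of the log2 fold change divided by the root of its F statistic, and intervals are at 95%. The scripts were tested on simulated counts.

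All members were named, the related lists were counted, and up to 4 genes per list and comparison with the smallest adjusted p could be named. The members and lists were chosen with earlier results of these data known. Alternatives used DESeq2 1.42.0 (its size factors or its test), other filters, only the groups compared, a replicate block, a heart marker covariate, and each library left out.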

Additional observations from a re-analysis of the deposited data

How the results depend on the processing

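Of the members' fold changes under the alternatives, 373 with a library left out and 313 under other settings kept their side of the threshold, 8 and 5 newly passed it, 3 and 2 no longer passed it, and none that was called reversed. Of the 373 and 313, 22 and 2 changed sign, none of them called, among them Thbs2 for HDAC1 in vehicle and Fn1 for HDAC1 with TGFB1. The 6 and 5 members raised by TGFB1 were called under all 13 alternatives. Sparc was called in vehicle under all 13 (log2 -0.85 to -0.67) and with TGFB1 under 12 (log2 -0.87 to -0.63). For HDAC1 in vehicle, 1 to 2 members were called with a library left out. With no filter on low counts 3 were called, when Fn1 (log2 -0.22, edgeR, adjusted p = 0.0307) and Postn (log2 -0.38, edgeR, adjusted p = 0.0174) joined Sparc. In that fit Sparc had an edgeR adjusted p of 1.07e-15, against 0.00127 in the main fit, at log2 -0.76 in each. The added calls are therefore read with caution, and the reason for the shift was not tested. With TGFB1 the heart marker covariate left 0 members, and leaving out a library 1 to 3.

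Over all genes, HDAC1 in vehicle called 2038, and 1144 to 2166 with a library left out, falling by over 1.5 times without replicate 1 of either vehicle group. With TGFB1 it called 954 (317 higher), 1292 (610 higher) by the DESeq2 test, 93 with the heart marker covariate, and 237 to 1236 with a library left out, lowest without replicates 1 and 3 of HDAC1 (237 and 291) and of the empty vector (405 and 495). The interaction called 70, 242 by the DESeq2 test, 479 with no filter, 0 with the covariate, and 3 to 257 with a library left out, highest without replicate 3 of the empty vector in vehicle and lowest without replicate 3 of HDAC1 with TGFB1. The cause of these shifts was not tested.

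No clear pairing of the libraries by replicate number was seen, though weak correlations cannot exclude one. In the tested comparisons of 2 groups, the correlations of same-numbered libraries' deviations ran from -0.08 to 0.12. Of 3 libraries, 0 matched their own number best for HDAC1 with TGFB1, and 2 did in each other comparison of 2 groups. With a replicate block the genes called were 1790, 784, 7197, 6915 and 98 for HDAC1 in vehicle, HDAC1 with TGFB1, TGFB1 in empty vector cells, TGFB1 in HDAC1 cells and the interaction, and the members called were 1, 2, 6, 5 and 0, as without it. For the average HDAC1 effect, Postn was called by DESeq2 (log2 -0.29, adjusted p = 0.0350), with no filter, and without replicate 3 of the empty vector in vehicle (log2 -0.34) or replicate 2 with TGFB1 (log2 -0.35). Thbs2 was called without that last library (log2 -0.49), Fn1 (log2 -0.17) and Thbs1 (log2 -0.14) without replicate 3 of the same group, and Tgfbi without replicate 2 of HDAC1 in vehicle (log2 -0.20) or with no filter. Depth limits Thbs2, at 23 to 84 counts a library.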

Other observations

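The related lists held 6 factors known to act on the alternative splicing of the fibronectin extra domains. Of these 5 were tested, and TGFB1 raised 3 and lowered 1 in each vector, where 50.9% of all genes were called with the empty vector and 49.1% with HDAC1. Srsf5 did not pass the test in either vector. The genes named next were chosen after their values were seen. With the empty vector Srsf1 rose by 0.50, Srsf3 by 0.61 and Srsf7 by 0.47 on the log2 scale. Esrp2, an epithelial splicing regulator, fell by 1.35 on the same scale (edgeR, adjusted p = 0.00520). Its level was low, at 1.34 ± 0.244 CPM in vehicle and 0.521 ± 0.328 CPM with TGFB1. In vehicle HDAC1 raised Srsf3 by 0.22 and Srsf7 by 0.23 on the log2 scale, where 6.64% of all genes were called higher. With TGFB1 it called 0 of the 5 by edgeR and 1 by DESeq2, where edgeR called 6.53% of all genes. Of the 5, 1 had an unadjusted edgeR p under 0.05, as had 23.0% of all genes. The gene counts of Fn1 do not separate its isoforms, so inclusion of the extra domains was not analysed here.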
